A study of Mus musculus with 12 samples.

Results

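The 48 translation initiation factor genes described here were the protein-coding genes whose Ensembl identifier maps to a mouse symbol starting with *Eif1* to *Eif6*, without the inhibitor proteins (*Eif4ebp*) and the kinases of eIF2 alpha (*Eif2ak*). They were taken from 55401 rows of the count table, of which 21897 were protein-coding genes with a symbol. They lie on 17 chromosomes. The rule used names only and no measured value, but it was chosen with earlier results of these data known.

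RNA sequencing was performed on mouse oocytes that had been cut by laser from stained sections of fixed, paraffin-embedded ovaries. The strain was C57Bl/6j x CBA/J in the labels (F1 hybrids of C57BL/6JRj and CBA/JRj in the methods), and the study's methods describe ovaries of pups aged 7 to 8 days that were cultured for 5 days. Oocytes of primordial (dormant) and of primary (growing) follicles were collected after culture with dorsomorphin (DM), an inhibitor of the kinase AMPK, or with the solvent DMSO alone (control). Each of the 4 groups held 3 libraries, which gives 12 libraries of pooled oocytes whose RNA had been amplified before library preparation. The labels call the controls sham and describe the samples as in vivo, whereas the methods describe cultured ovaries, and the methods give 5 to 10 µM DM for cultures, with 10 µM as the leading dose, without naming the dose of these libraries. The study's legends call the 3 samples of a group biologically independent pools of oocytes, but the labels do not tie a library to a culture or an animal, and the p-values below measure the spread between these libraries. In bulk samples of this kind, fewer cells of a type and less RNA per cell cannot be told apart.

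Initiation factors assemble a ribosome at the start codon of an mRNA. eIF2 carries the initiator methionyl-tRNA to the small subunit, and eIF2B recharges eIF2 with GTP. The eIF4F complex, made of the cap-binding protein eIF4E, the scaffold eIF4G and the helicase eIF4A, recruits the mRNA, while eIF3 holds the assembly together and eIF1, eIF1A and eIF5 govern scanning and the choice of the start codon. In oocytes, which store mRNAs for later use, eIF4E and the proteins that bind it are known as points where translation is held back or released.

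The annotated start codons of the members on which the results turn are shown with their surroundings, since the start codon is the sequence that these factors select. Each sequence comes from the GENCODE M21 transcripts (GRCm38, the same assembly as mm10) and is printed 5′ to 3′ as 12 bases before the start codon, the codon in capitals and 15 bases after it.
Eif4g2: caagccgccaaaGTGgagagtgcgattgca
Eif4g3: gcccctcagacaATGaactcacaacctcag
Eif4e: gatcgatctaagATGgcgactgtggaaccg
Eif4e2: ggcggcaagaggATGaacaacaagttcgac
Eif2b1: ctcgaggaagccATGgaggacggtgagtta
Eif3e: tcccccggcaagATGgcggagtacgacctg
Eif1: gaatcgtatcgtATGtccgctatccagaac
Eif1b: cactagtgtcgcATGtccactatccagaac
Eif5: taataagccaaaATGtctgtcaacgtcaac
The start codon of *Eif4g2* (chr7:111081545-111081547, minus strand) was annotated as GTG. All other members had ATG, and of 20422 protein-coding genes with an annotated start, each read from 1 selected transcript, *Eif4g2* was the 1 gene with GTG. The transcript used for *Eif4g2* had an annotated coding sequence of 483 bases. Transcripts with an incomplete coding end were not left out, so this need not be the full coding length of the gene. The favoured context of a start codon has a purine at position -3 and G at position +4, counted from the first base of the codon as +1. Both bases were present in 23 of 48 members (47.9%) and in 41.6% of all protein-coding genes, and 3 members (6.25%, against 7.42% of all genes) had neither. These 3 were *Eif3b*, *Eif1* (chr11:100320130-100320132, plus strand) and *Eif1b* (chr9:120492811-120492813, plus strand). The start codons of *Eif4e* (chr3:138527297-138527299, plus strand), *Eif4e2* (chr1:87214000-87214002, plus strand), *Eif2b1* (chr5:124579011-124579013, minus strand), *Eif3e* (chr15:43282690-43282692, minus strand), *Eif4g3* (chr4:138082959-138082961, plus strand) and *Eif5* (chr12:111539616-111539618, plus strand) had a purine at position -3.

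Total counts ranged from 14034586 to 42639326 per library, and 17.8 to 43.6% of protein-coding genes had more than 3 counts. Primary control replicate 3 had the fewest genes detected, and it also had the fewest members with more than 3 counts (31 of 48, against 35 to 45 in the other libraries). Its summed oocyte markers were the lowest (7.46 CPM, beside 8045 CPM of granulosa and 6492 CPM of stroma markers). Such sums rest mostly on a few genes, here Foxl2 with 226837 counts in the granulosa sum. Single oocyte markers differed: this library had 151 counts of Zp2, the most of any library, and 6 of 11 oocyte markers were detected in it. Among the marker lists, 3 to 10 of 11 oocyte markers were detected per library with a summed level of 7.46 to 1402 CPM (counts scaled to the same total in every library). The summed level was 265 to 11125 CPM for 8 granulosa markers and 1947 to 12863 CPM for 7 stroma markers, so that the stroma sum was above the oocyte sum in every library. For 6 blood and endothelium markers the sum was 0 to 24.9 CPM, with Hba-a1 and Hbb-bs at 0 in all 12 libraries. Within each group the oocyte sums of the 3 libraries spanned a wide range (22.1 to 1153 CPM in primordial controls, 16.7 to 1070 CPM after DM, 7.46 to 1402 CPM in primary controls and 55.9 to 1115 CPM after DM), and their part in the differences below was not tested.

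The members together held 1.17 to 2.83% of all counts. Of the 576 values (48 members in 12 libraries), 53.5% were at least 10 CPM, 36.3% were under 1 CPM and 10.2% lay between. Of the members, 35 had at least 10 CPM in some library and under 1 CPM in another, and 10 members had at least 1 CPM in all 12 libraries. *Eif4g2* alone had at least 10 CPM in every library, and *Eif2s3y*, *Eif3j2* and *Eif5a2* reached that level in none. The same gene often had a high and a low value within 1 group: this was the case for 15 members in primordial controls, 16 after DM, 26 in primary controls and 16 after DM. This pattern was common to genes of the data set: among the 5856 protein-coding genes with a mean of at least 10 CPM, 93.8% had both a value of at least 10 CPM and one under 1 CPM over the 12 libraries, against 30 of the 40 members (75%) with such a mean. Within a group the share was 47.3, 47.98, 58.8 and 39.1% of those genes in the same order, and 27.5, 37.5, 57.5 and 37.5% of those members. Where a member that reached 100 CPM elsewhere was under 1 CPM, its count was seldom 0. There were 130 such values, with a median of 6 counts, a maximum of 34, and 11 at 0. Their median was 0.0177% of the sum of the same gene over the other libraries. Over 30 members the median low count rose with that sum (Spearman rho 0.891), and the reason was not tested. For the same 40 members, 27.1% of values were under 1 CPM and 10.8% between 1 and 10 CPM, against 47.9% and 11.1% for the 5856 genes.

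**Figure D1:**
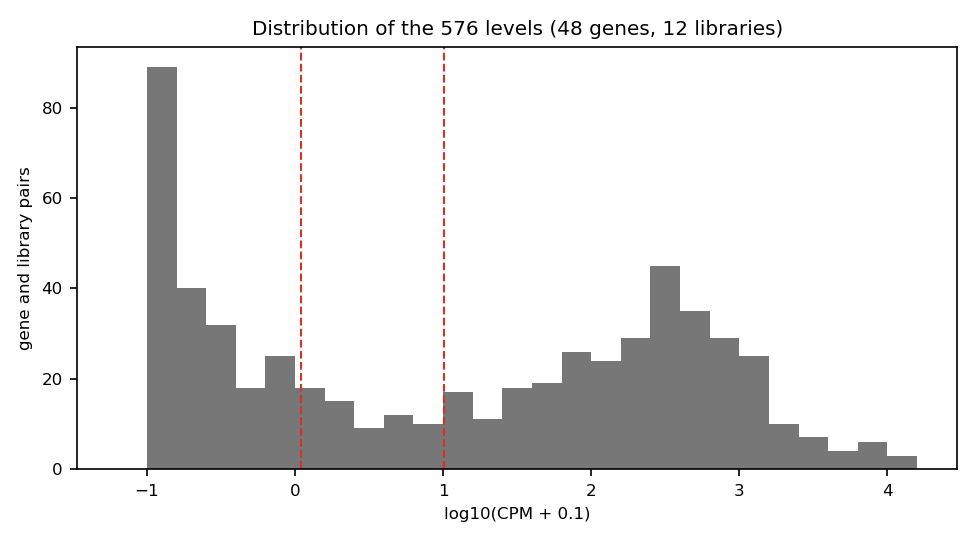
Histogram of the 576 levels of 48 initiation factor genes in 12 libraries, with log10(CPM + 0.1) on the x axis and the number of gene and library pairs on the y axis. Dashed lines mark 1 and 10 CPM, and 10.2% of the values lie between them.

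**Figure D2:**
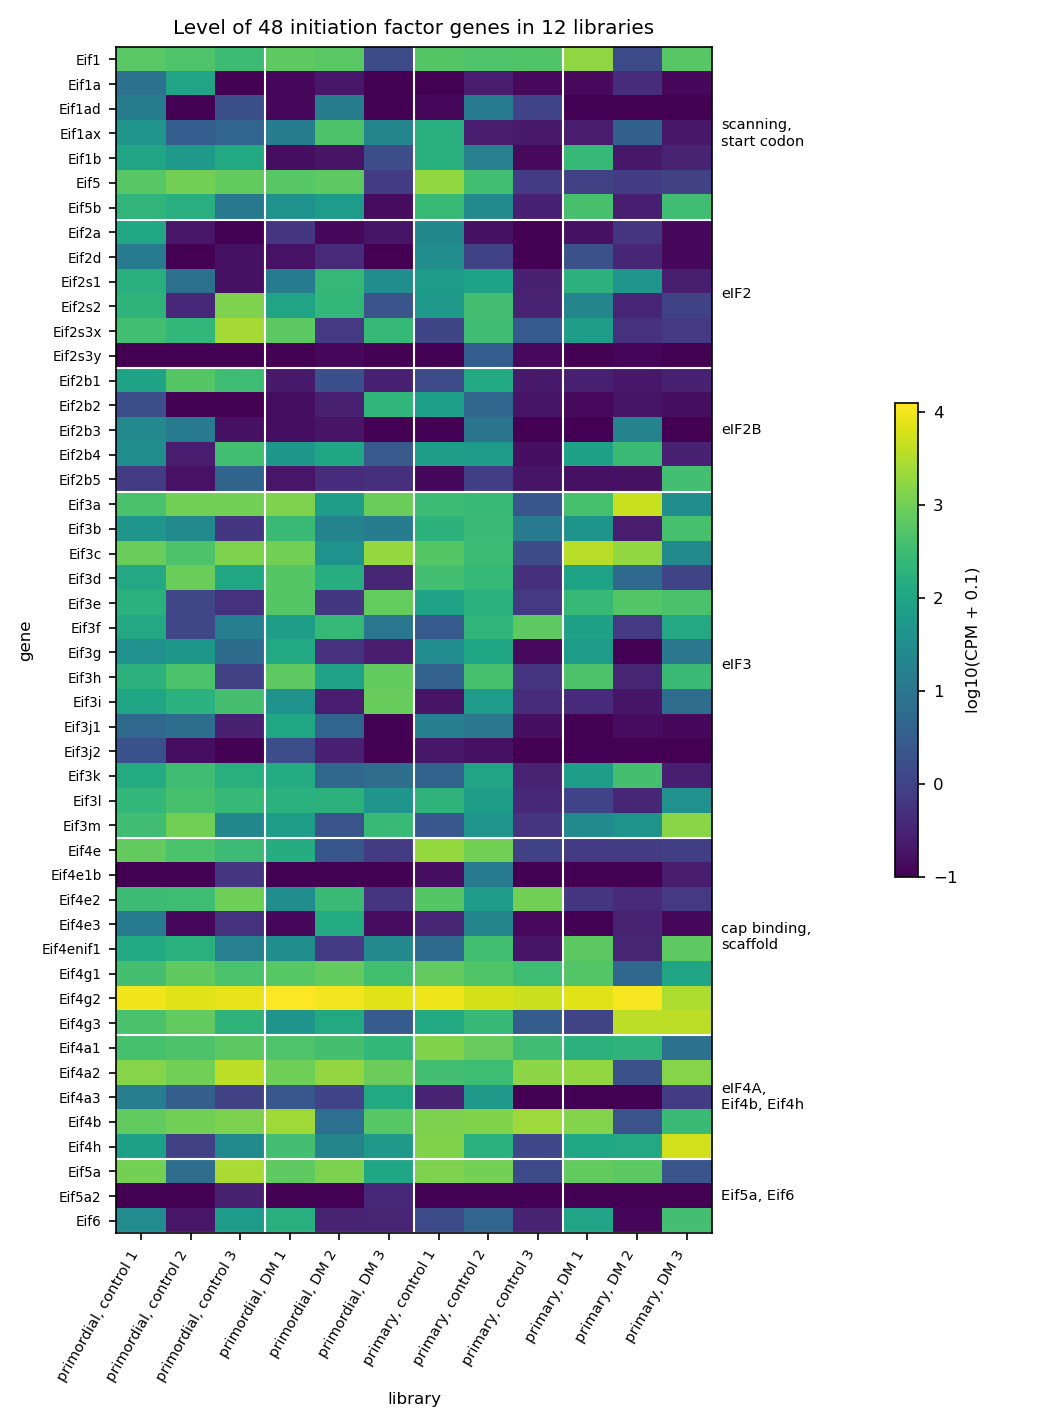
Level of each of the 48 genes (rows, ordered by role) in each of the 12 libraries (columns, 3 per group), coloured by log10(CPM + 0.1). The row of *Eif4g2* is bright in every library, whereas 35 genes have both a value of at least 10 CPM and a value under 1 CPM.

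The scaffold gene *Eif4g2* (ENSMUSG00000005610.17, chromosome 7, 111067750 to 111083030) encodes a relative of eIF4G that lacks the eIF4E-binding part and acts in translation that does not depend on eIF4E. It was singled out after its values were seen. It had 362832, 269329 and 128681 counts in primordial controls, 477997, 353981 and 150271 with DM, 312624, 83514 and 151380 in primary controls and 196533, 466505 and 102061 with DM. All libraries were high, and its level was 2910 CPM at the lowest and 12505 CPM at the highest, a ratio of 4.30. The median ratio was 4393 over the 3695 genes with counts in all libraries, in which *Eif4g2* ranked 8th from the most even, and 3215 over the 34 members among them. Of 83 protein-coding genes with a median of at least 1000 CPM, 4 had a ratio no larger, *Eif4g2* included. The group means were 8453 ± 1163 CPM in primordial controls, 9930 ± 2690 after DM, 6664 ± 2241 in primary controls and 6998 ± 4017 after DM (SD, n = 3). It accounted for 14.7 to 55.5% of all member counts in a library. Per kilobase of exon, its median level (776 CPM per kb) was the highest of the members, followed by *Eif5a* (307), *Eif1* (259), *Eif4b* (251) and *Eif4a2* (233). Its exons overlap the gene Gm23262 on the same strand.

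The other scaffolds were less even. *Eif4g1*, the main eIF4G, had 14901, 27002 and 6689 counts in primordial controls, 22383, 26687 and 7631 with DM, 25994, 7236 and 10374 in primary controls and 14953, 221 and 3722 with DM. Only DM replicate 2 of primary follicles was low, and the groups overlapped at both stages. *Eif4g3*, a close relative, had 16411, 27298 and 3099 counts in primordial controls, 1693, 4396 and 61 with DM, 4387, 3721 and 97 in primary controls and 28, 163670 and 138420 with DM. In primordial follicles the control libraries lay above the DM libraries once scaled by library size or TMM, and in primary follicles 2 DM libraries were far above every other library while the third was near the bottom.

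The cap-binding gene *Eif4e* (ENSMUSG00000028156.12, chromosome 3, 138526179 to 138559696) had 28380, 17103 and 4714 counts in primordial controls, 5418, 78 and 15 with DM, 66326, 14538 and 28 in primary controls and 19, 30 and 28 with DM. Its control libraries were high except primary control replicate 3, and after DM only replicate 1 of primordial follicles was high. Controls and DM did not overlap at either stage once scaled, but in primary follicles control replicate 3 held 28 counts, within the 19 to 30 counts of the DM libraries, so that the gap there rests on scaling. Exons of *Eif4e* overlap the microRNA gene Mir1956 on the same strand.

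*Eif4e2* (ENSMUSG00000026254.17, chromosome 1, 87213914 to 87240488), whose product binds the cap but not eIF4G and is known as a repressor, had 11611, 12174 and 14428 counts in primordial controls, 1212, 10438 and 10 with DM, 19615, 914 and 32313 in primary controls and 15, 13 and 21 with DM. The 3 DM libraries of primary follicles were all near 0 and all 3 controls had 914 counts or more. In primordial follicles the groups overlapped under TMM. The mean level in primary follicles was 560 ± 487 CPM in controls and 0.483 ± 0.157 after DM (SD, n = 3).

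Other genes of this class were low or patchy. *Eif4enif1*, which encodes the eIF4E-binding protein 4E-T, had 5054, 6724 and 254 counts in primordial controls, 1264, 22 and 530 with DM, 200, 4947 and 3 in primary controls and 17765, 10 and 23553 with DM. Its groups overlapped at both stages, with the highest counts in 2 DM libraries of primary follicles. *Eif4e3*, a further cap-binding relative, had 458, 1 and 7 counts in primordial controls, 1, 4869 and 1 with DM, 8, 291 and 1 in primary controls and 0, 9 and 1 with DM, and most of its counts came from DM replicate 2 of primordial follicles. *Eif4e1b*, a form of eIF4E known from oocytes, had 0, 0 and 8 counts in primordial controls, 0, 0 and 0 with DM, 2, 171 and 0 in primary controls and 0, 0 and 5 with DM, so 171 of its 186 counts came from 1 library.

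**Figure D3:**
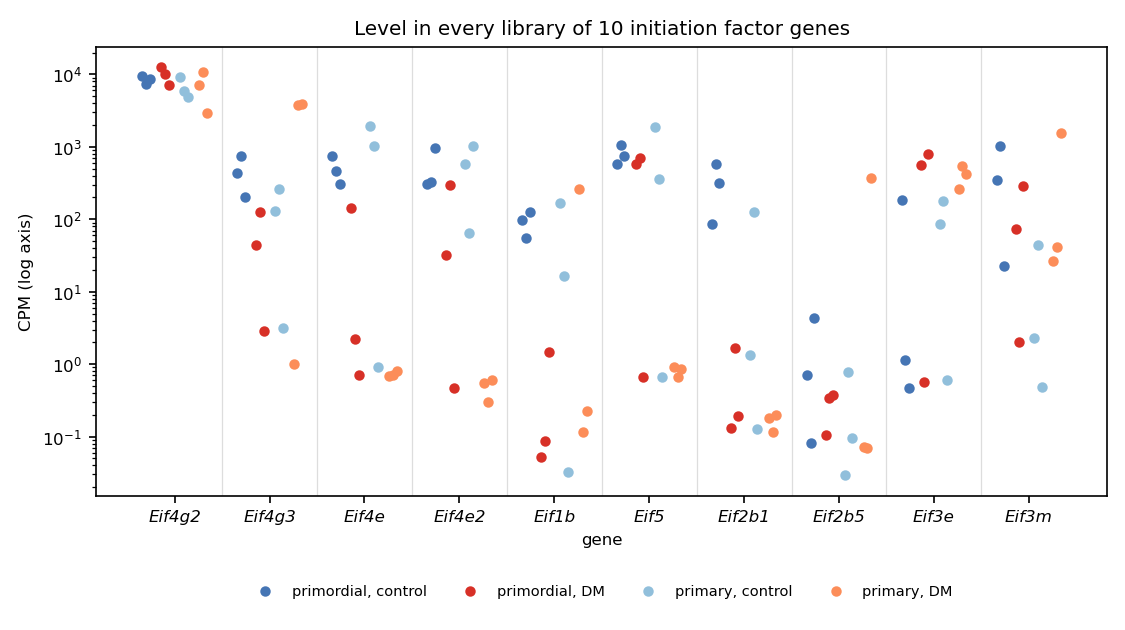
CPM (log axis) of 10 initiation factor genes in each of the 12 libraries, with colour for the group and 1 point per library. *Eif4g2* stays between 2910 and 12505 CPM, whereas *Eif4e* and *Eif4e2* are under 1 CPM in all 3 DM libraries of primary follicles.

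Among the scanning and start codon genes, *Eif1*, whose product keeps the scanning ribosome open, had 23719, 18743 and 4670 counts in primordial controls, 26320, 22106 and 29 with DM, 19625, 6823 and 15925 in primary controls and 49912, 55 and 20469 with DM. It was low in DM replicate 3 of primordial follicles and DM replicate 2 of primary follicles and high in the rest. Its near copy *Eif1b* had 3695, 2060 and 1937 counts in primordial controls, 2, 3 and 31 with DM, 5786, 234 and 1 in primary controls and 7181, 5 and 8 with DM. The 3 primordial controls were all above the 3 DM libraries, whereas in primary follicles both groups held high and low libraries. Exons of *Eif1b* overlap D830035M03Rik on the opposite strand, and 3 pseudogenes of *Eif1* were separate rows of the table, so reads of near-identical copies could have been split.

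*Eif5*, which encodes the GTPase-activating protein of eIF2, had 22158, 39206 and 11453 counts in primordial controls, 22524, 24134 and 14 with DM, 64835, 5098 and 21 in primary controls and 25, 28 and 30 with DM. All 3 DM libraries of primary follicles were at 25 to 30 counts, but so was primary control replicate 3 at 21, and the groups overlapped at both stages. *Eif5b*, the GTPase that joins the ribosomal subunits, had 8333, 6140 and 171 counts in primordial controls, 1601, 2344 and 1 with DM, 9186, 365 and 6 in primary controls and 11320, 7 and 12271 with DM. *Eif1ax*, the X-linked eIF1A, had 1758, 120 and 67 counts in primordial controls, 526, 16169 and 444 with DM, 5443, 2 and 4 in primary controls and 4, 157 and 4 with DM. *Eif5b* had a near-empty library in every group except primordial controls. *Eif1ax* was at 157 counts or fewer in all 3 primary DM libraries, and primary control replicates 2 and 3 were as low, at 2 and 4. *Eif1a* and *Eif1ad* had more than 3 counts in 4 and 5 libraries, with at most 3480 and 533 counts.

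In eIF2, *Eif2s1* (the alpha subunit, whose phosphorylation slows initiation) had 6201, 282 and 1 counts in primordial controls, 475, 8597 and 662 with DM, 2134, 1258 and 6 in primary controls and 5227, 1949 and 6 with DM. *Eif2s2* (beta) had 7874, 10 and 19350 counts in primordial controls, 3641, 8421 and 44 with DM, 1835, 5197 and 7 in primary controls and 569, 10 and 30 with DM. *Eif2s3x* (gamma, X-linked) had 13641, 8820 and 38986 counts in primordial controls, 25466, 21 and 5473 with DM, 36, 4922 and 82 in primary controls and 1981, 18 and 21 with DM. The groups overlapped for all 3 subunits in both comparisons of DM with control, and no library had low counts of all 3 genes except primary control replicate 3 and DM replicate 3 of primary follicles, where each subunit had at most 82 counts. *Eif2s3y*, the Y-linked copy of the gamma subunit, had 46 counts in primary control replicate 2 and at most 1 in every other library, and because it is a near-identical copy of *Eif2s3x* these counts are uncertain. *Eif2a* and *Eif2d*, which encode other proteins able to bring tRNA to the ribosome, had more than 3 counts in 5 and 6 libraries, with at most 4233 and 1091 counts.

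For eIF2B, *Eif2b1* (ENSMUSG00000029388.14, chromosome 5, 124570213 to 124579131), the alpha subunit, had 3263, 21422 and 4864 counts in primordial controls, 5, 58 and 4 with DM, 46, 1771 and 4 in primary controls and 5, 5 and 7 with DM. The 3 primordial controls were all at 3263 counts or more and the 3 DM libraries at 58 or fewer, whereas in primary follicles only control replicate 2 was high. The mean level in primordial follicles was 329 ± 246 CPM in controls and 0.661 ± 0.868 after DM (SD, n = 3). No exon of another gene overlaps *Eif2b1*.

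The delta subunit gene *Eif2b4* had 1171, 6 and 5468 counts in primordial controls, 1927, 3689 and 55 with DM, 2363, 875 and 2 in primary controls and 2270, 12924 and 7 with DM. *Eif2b2* (beta) had 61, 0 and 0 counts in primordial controls, 2, 7 and 4790 with DM, 2629, 67 and 3 in primary controls and 1, 4 and 2 with DM. *Eif2b5*, the catalytic epsilon subunit, had 27, 3 and 65 counts in primordial controls, 4, 12 and 8 with DM, 1, 11 and 3 in primary controls and 2, 3 and 13153 with DM. The groups of *Eif2b4* and *Eif2b5* overlapped in both comparisons of DM with control. The primary DM libraries of *Eif2b2* were at 4 counts or fewer, as was primary control replicate 3 at 3, and 13153 of the 13292 counts of *Eif2b5* came from DM replicate 3 of primary follicles. *Eif2b3* (gamma) had more than 3 counts in 4 libraries, with at most 947. In no library did all 5 eIF2B genes have at least 10 CPM, and 1 to 3 of them did in each primordial library.

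eIF3 had 14 genes, of which 2 to 13 were at 10 CPM or more in a library. The lowest number was that of primary control replicate 3, in which 10 of the 14 were under 1 CPM. Summed over the 14 genes, the level was 3680 ± 1108 CPM in primordial controls, 3850 ± 2625 after DM, 1624 ± 831 in primary controls and 5168 ± 2278 after DM (SD, n = 3).

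*Eif3a*, the largest subunit, had 16636, 37599 and 16008 counts in primordial controls, 49518, 2371 and 18545 with DM, 10769, 3967 and 70 in primary controls and 11324, 199035 and 1129 with DM. *Eif3c* had 32101, 17429 and 19315 counts in primordial controls, 39484, 1440 and 41086 with DM, 19081, 4374 and 42 in primary controls and 98345, 78303 and 906 with DM. Both were high in most libraries and lowest in primary control replicate 3, and their groups overlapped under TMM. *Eif3b* had 1750, 978 and 8 counts in primordial controls, 11307, 673 and 292 with DM, 6630, 4123 and 368 in primary controls and 1194, 6 and 14588 with DM. Its groups overlapped in both comparisons of DM with control.

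*Eif3e* had 6920, 42 and 7 counts in primordial controls, 21480, 20 and 16765 with DM, 2924, 2551 and 19 in primary controls and 7300, 23023 and 14902 with DM. In primary follicles the DM libraries were above all 3 controls under each of the 3 scalings tried, whereas in primordial follicles each group held high and low libraries. Pseudogenes named for an older symbol of *Eif3e* (*Eif3s6*) were 4 separate rows of the table. *Eif3m* had 13090, 38411 and 341 counts in primordial controls, 2783, 71 and 5999 with DM, 78, 625 and 15 in primary controls and 726, 1756 and 54704 with DM. In primary follicles its DM libraries were above the controls under TMM and with DESeq2 size factors and overlapped them with library size alone, and its exons overlap Ccdc73 on the opposite strand.

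*Eif3d* had 4451, 34045 and 1718 counts in primordial controls, 21997, 5252 and 5 with DM, 12925, 3626 and 13 in primary controls and 2510, 233 and 36 with DM. *Eif3f* had 4434, 42 and 240 counts in primordial controls, 2772, 8944 and 211 with DM, 90, 3019 and 21730 in primary controls and 2255, 26 and 4177 with DM. For both genes the groups overlapped at both stages under TMM. With DESeq2 size factors the primordial DM libraries of *Eif3f* lay above the controls. For *Eif3f* primary control replicate 3 was the highest library, unlike for most members. *Eif3h* had 7207, 17056 and 13 counts in primordial controls, 25587, 2991 and 15769 with DM, 133, 5834 and 16 in primary controls and 12736, 10 and 10316 with DM. *Eif3i* had 3769, 6752 and 5903 counts in primordial controls, 1512, 5 and 17196 with DM, 3, 920 and 11 in primary controls and 9, 4 and 229 with DM. The groups of these genes overlapped in both comparisons of DM with control too.

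*Eif3g* had 1410, 1974 and 95 counts in primordial controls, 4680, 15 and 3 with DM, 1034, 1489 and 1 in primary controls and 1708, 0 and 370 with DM. *Eif3k* had 5149, 12710 and 2526 counts in primordial controls, 5338, 177 and 141 with DM, 139, 1325 and 7 in primary controls and 1956, 16624 and 6 with DM. *Eif3l* had 8946, 15370 and 3867 counts in primordial controls, 6780, 6735 and 978 with DM, 7126, 972 and 9 in primary controls and 26, 11 and 1337 with DM. For *Eif3k* and *Eif3l* the primordial controls were all high, and in primary follicles only part of the libraries were. *Eif3j1*, which encodes a loosely bound subunit, and its copy *Eif3j2* had more than 3 counts in 6 and 4 libraries, with at most 4189 and 68 counts.

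The helicase gene *Eif4a1* had 15873, 17924 and 10101 counts in primordial controls, 19211, 13504 and 4929 with DM, 46382, 11607 and 10564 in primary controls and 5287, 8703 and 275 with DM. *Eif4a2* had 55233, 38175 and 59824 counts in primordial controls, 35432, 64577 and 18271 with DM, 12691, 4521 and 50818 in primary controls and 52642, 74 and 52940 with DM. Each was far below the rest in 1 library only, DM replicate 3 of primary follicles for *Eif4a1* and DM replicate 2 of primary follicles for *Eif4a2*. With library size alone the primary DM libraries of *Eif4a1* (7.84 to 204 CPM) lay below the primary controls (340 to 1361 CPM). These groups overlapped under TMM and with DESeq2 size factors. Exons of both genes overlap other genes on the same strand, among them Snord2 and Snora81 for *Eif4a2*. *Eif4a3*, which belongs to the exon junction complex rather than to initiation proper, had 576, 126 and 13 counts in primordial controls, 87, 34 and 2602 with DM, 7, 785 and 0 in primary controls and 0, 0 and 25 with DM. Its primary DM libraries were at 25 counts or fewer, as were primary control replicates 1 and 3 at 7 and 0.

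*Eif4b*, a cofactor of the helicase, had 28566, 38060 and 18429 counts in primordial controls, 88298, 246 and 12460 with DM, 43158, 19434 and 69153 in primary controls and 39179, 80 and 10506 with DM. *Eif4h*, a relative of *Eif4b*, had 3042, 32 and 412 counts in primordial controls, 14691, 720 and 1136 with DM, 45972, 2565 and 35 in primary controls and 3105, 5182 and 198843 with DM. *Eif4b* was low in 1 DM library of each stage, and most counts of *Eif4h* came from DM replicate 3 of primary follicles. The groups of both genes overlapped under TMM.

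*Eif5a*, now known mainly for its part in elongation, had 41613, 239 and 43168 counts in primordial controls, 26721, 43122 and 2137 with DM, 44584, 14882 and 41 in primary controls and 20879, 27387 and 73 with DM. *Eif6*, which keeps the large subunit from joining too early, had 1113, 4 and 994 counts in primordial controls, 6328, 8 and 5 with DM, 45, 64 and 7 in primary controls and 2594, 1 and 13331 with DM. *Eif6* had high and low libraries in every group except primary controls, where all 3 had 64 counts or fewer, and *Eif5a* was high in all 3 primordial DM libraries. The paralog *Eif5a2* had at most 6 counts in any library.

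The first comparison asks which initiation factor genes differ after DM in primordial follicles. By the quasi-likelihood test of edgeR, an adjusted p under 0.05 was reached by 0 of the 39 members that passed the filter on low counts (the other 9 did not), against 0.0149% of all 6699 genes tested. At an unadjusted p under 0.05 there was 1 member, lower after DM (7.33% of all genes). DESeq2 called 3 of the 36 members that it gave an adjusted p, all lower (*Eif1b*, *Eif2b1* and *Eif2b3*, with 13.1% of all genes called). *Eif2b3*, which did not pass the edgeR filter, had 947, 442 and 1 counts in controls and 2, 3 and 0 with DM, so control replicate 3 was as low as the DM libraries. The libraries of control and DM did not overlap for 5 members on the TMM scale, against 12.7% of all genes tested. These were *Eif2b1*, *Eif1b*, *Eif4e* and *Eif4g3*, lower after DM, and *Eif4g2*, higher, of which the first 3 held under each of the 3 scalings. The overlap of *Eif4g3* returned with DESeq2 size factors, and that of *Eif4g2* with library size or DESeq2 size factors. The median log2 fold change was 0.19 over the members and 0.13 over all genes tested, with 20 members higher and 19 lower. With library size alone these medians were -0.18 and -0.43, with DESeq2 size factors 0.52 and 0.56, so the sign of a small difference depended on the scaling.

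The smallest p of this comparison belonged to *Eif2b1*, with a log2 fold change of -8.65 (SE 3.53, adjusted p = 0.628, edgeR) and the counts given above lower in 3 of 3 DM libraries than in any control. Over the alternatives tried its adjusted p was 0.00149 to 0.999. *Eif1b* followed at -6.69 (SE 3.84, adjusted p = 0.658, edgeR), with 0.0488 to 0.999 over the alternatives. *Eif3e* was at 4.11 (SE 2.40, adjusted p = 0.661, edgeR), with 0.089 to 0.999 over the alternatives, and without control replicate 1, the library with 6920 counts, the value was 9.41.

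In primary follicles, none of the 33 members tested had an adjusted p under 0.05 (0% of 4181 genes, edgeR), and 15 members did not pass the filter. At an unadjusted p under 0.05 there were 2 members, 1 in each direction, with 12.2% of all genes. DESeq2 called 10 members of the 31 that it gave an adjusted p, with 22.1% of all genes. Of these, 8 were higher after DM (*Eif2b4*, *Eif3c*, *Eif3e*, *Eif3k*, *Eif3m*, *Eif4enif1*, *Eif4g3* and *Eif6*) and 2 were lower (*Eif4e* and *Eif5*). Control and DM did not overlap for 4 members on the TMM scale, against 12.8% of all genes. *Eif4e* and *Eif4e2* were lower and *Eif3e* was higher under each of the 3 scalings, and *Eif3m* was higher under TMM. The members' median log2 fold change was 0.97 and that of all genes 0.31, with 19 members higher and 14 lower. With library size alone the medians were -0.01 and -0.96 (16 higher, 17 lower), and with DESeq2 size factors 2.88 and 2.04 (23 higher, 10 lower).

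*Eif4e2* had the smallest p here, with a log2 fold change of -10.41 (SE 4.46, adjusted p = 0.395, edgeR), and its adjusted p was 0.186 to 0.999 over the alternatives. That range does not include DESeq2, which gave *Eif4e2* no adjusted p. *Eif4e2* was lower in 3 of 3 DM libraries than in any control. *Eif4g3* was at 6.55 (SE 3.24, adjusted p = 0.396, edgeR), with 0.00231 to 0.999 over the alternatives, and was higher than all controls in 2 of 3 DM libraries. *Eif4e* was at -8.44 (SE 4.32, adjusted p = 0.396, edgeR), with 0.0301 to 0.999 over the alternatives.

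The stage comparison in controls asks how primary follicles differ from primordial ones without DM. None of 42 members tested had an adjusted p under 0.05 in edgeR (0% of 6726 genes), 1 had an unadjusted p under 0.05 (6.44% of all genes), and DESeq2 called none (5.77% of all genes). The groups did not overlap for 4 members on the TMM scale (9.44% of all genes): *Eif3b* was higher in primary follicles, and *Eif3i*, *Eif3k* and *Eif4g3* were lower. Of these, *Eif3i* and *Eif3k* held with library size alone and *Eif3b* with DESeq2 size factors, so none held under all 3 scalings. The number of members was 5 with library size alone and 4 with DESeq2 size factors, for which the share of all genes was not calculated. *Eif3f* had the smallest p, at a log2 fold change of 5.20 (SE 2.61, adjusted p = 0.749, edgeR). It rests on primary control replicate 3, without which the value was 1.44. DESeq2 gave *Eif3f* no adjusted p. *Eif3m* was at -5.25 (SE 2.81, adjusted p = 0.749, edgeR), or -3.20 without primordial control replicate 2, and over the alternatives the adjusted p was 0.494 to 1 for *Eif3f* and 0.0978 to 1 for *Eif3m*. The median log2 fold change was 0.05 over the members and -0.31 over all genes. The order and sign depended on the setting, with -0.30 and -0.50 for library size alone and -0.05 and -0.03 for DESeq2 size factors. With DESeq2 they were -1.06 and 0.37, but over other sets of genes (34 members and 12027 genes, against 42 and 6726 in edgeR). The members' median was -1.01 without primary control replicate 1.

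After DM, none of the 34 members tested had an adjusted p under 0.05 between primary and primordial follicles (0% of 4331 genes, edgeR). An unadjusted p under 0.05 was found for 2, both higher in primary follicles (17.2% of all genes), and DESeq2 called 3, of which *Eif4enif1* and *Eif4g3* were higher and *Eif5* was lower (24.6% of all genes). The groups did not overlap for 0 members on the TMM scale (16.5% of all genes), for 4 with library size alone and for 2 with DESeq2 size factors. The share of all genes was calculated on the TMM scale only. *Eif4g3* was at 7.43 (SE 2.81, adjusted p = 0.286, edgeR). *Eif2b5* was at 10.25 (SE 4.41, adjusted p = 0.286, edgeR), and without DM replicate 3 of primary follicles, which held nearly all of its counts, the value was -0.53. Over the alternatives the adjusted p was 0.00303 to 0.977 for *Eif4g3* and 0.182 to 0.996 for *Eif2b5*, which DESeq2 gave no adjusted p. These stage comparisons share their libraries with the comparisons of DM with control.

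The interaction asks whether the difference between DM and control itself differs between the stages. None of 44 members tested had an adjusted p under 0.05 (0% of 8500 genes, edgeR), and 8 had an unadjusted p under 0.05 (18.9% of all genes). The values of 5 of these were higher and of 3 lower. DESeq2 called 5 (*Eif1ad*, *Eif3a*, *Eif3k*, *Eif3m* and *Eif4g3*, 4 of them higher and 1 lower, with 11.5% of all genes). *Eif4g3* had the smallest p, at a difference of 9.52 between the log2 fold changes (SE 3.33, adjusted p = 0.133, edgeR). Its controls lay above DM in primordial follicles on the TMM scale, and 2 DM libraries lay above the controls in primary follicles. Its adjusted p was 0.00134 to 0.761 over the alternatives. *Eif2b2* was at -15.08 (SE 5.31, adjusted p = 0.134, edgeR), a value that was -5.63 without DM replicate 3 of primordial follicles, the library with 4790 of its 7566 counts. Its adjusted p was 0.106 to 0.761 over the alternatives, without DESeq2, which gave *Eif2b2* no adjusted p.

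**Figure D4:**
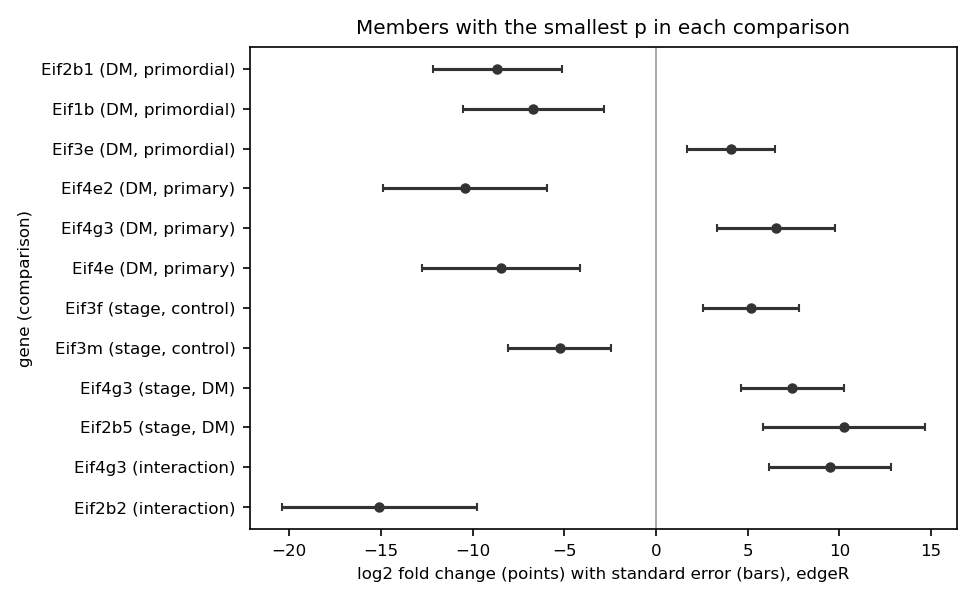
Log2 fold change from edgeR (x axis, points) with a standard error derived from its F statistic (bars) for the members with the smallest p in each comparison (y axis). Stage means primary against primordial follicles. The values run from -15.08 to 10.25, the standard errors from 2.40 to 5.31, and no adjusted p was under 0.05.

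The spread between libraries of a group was wide throughout: the biological coefficient of variation over all genes was 1.76 in the comparison of DM with control in primordial follicles and 1.86 in primary follicles. The standard errors of the members' log2 fold changes were 0.52 to 3.84 in primordial follicles, with the lowest for *Eif4g2*, and 2.20 to 4.46 in primary follicles. For *Eif4g2* the log2 fold change after DM was 0.75 (SE 0.52, adjusted p = 0.713, edgeR) in primordial follicles and 0.97 (SE 2.20, adjusted p = 0.828, edgeR) in primary follicles. With library size alone, the scale of the group means above, these values were 0.22 and -0.011, and with DESeq2 size factors 1.20 and 1.35.

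Among 35 other genes of translation, which include eIF4E-binding proteins, eIF2 alpha kinases and phosphatase subunits, poly(A)-binding proteins, elongation and release factors, none had an adjusted p under 0.05 in edgeR in any comparison. Unadjusted, 0 of 27 tested were under 0.05 after DM in primordial follicles, and 3 of 21 in primary follicles, all lower (*Eif4ebp1*, Etf1 and Ppp1r15b), beside 7.33 and 12.2% of all genes. The number was 2 of 29 between stages in controls, 3 of 22 between stages after DM and 3 of 31 for the interaction, beside 6.44, 17.2 and 18.9% of all genes. As for *Eif4g2*, a level of at least 10 CPM in all 12 libraries was found for 4 of the 35, namely Pabpc1, Eef1a1, Eef1b2 and Eef2. *Eif4ebp1*, the inhibitor of eIF4E that mTOR phosphorylates, had 1806, 1509 and 11 counts in primary controls and 2, 1 and 4 after DM.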

How the data were processed

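RNA of laser-cut oocytes was amplified (Ovation PICO) and libraries were made with a TruSeq RNA Access kit, per the labels, which also name Smart-seq II for collected oocytes. The authors deposited raw counts of reads per gene, not normalized. The study's methods name TopHat2 as aligner, whereas the submitters' processing notes list STAR with Trim Galore, and both name featureCounts and mm10. Whether counting used strand is not given in the sources used here, and 18 members have an exon that overlaps another gene, so their counts may include its reads. Amplification of small amounts of RNA can multiply chance differences between libraries. Counts are not independent molecules, so limits from counts cover counting error only. A count of 0 allows up to 0.0704 to 0.214 CPM, depending on the library.

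Symbols, positions and exon lengths came from GENCODE M21 (GRCm38). Groups came from the sample titles. The members and gene lists were chosen with earlier results of these data known. All genes were fitted with edgeR 4.0.16 in R 4.3.3 (low counts removed by filterByExpr, TMM scaling, quasi-likelihood F test by glmQLFTest, prior count 0.125), with only the groups compared in each fit and all 4 groups for the interaction, and p-values were adjusted by the Benjamini-Hochberg method over all genes tested (threshold 0.05). DESeq2 1.42.0 was an alternative, with other normalizations, filters, a prior count of 2, a replicate block, 1 fit of all libraries and leaving out each library. Each SE of an edgeR value was calculated as the absolute log2 fold change divided by the square root of the F statistic. Genes not given an adjusted p by DESeq2 were left out of its counts. Non-overlap means that every library of 1 group exceeded every library of the other, on TMM-normalized CPM. Detection means more than 3 counts. Python 3.11.15 was used for the descriptions. No libraries of a group agreed within sampling noise.

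Members with more than 3 counts in at least 9 of 12 libraries (35 members), the cap-binding and eIF2 members and those with the smallest p (3 in each comparison of DM with control, 2 in each other) were named with every count. Log2 fold changes are given for the members with the smallest p and for Eif4g2, which was added after its values were seen.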

Additional observations from a re-analysis of the deposited data

How the results depend on the processing

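No member had an adjusted p under 0.05 in edgeR under any normalization, filter or choice of libraries tried, and leaving out each library in turn gave 0 in every comparison. With DESeq2 the number was 3 after DM in primordial follicles, 10 after DM in primary follicles, 0 between stages in controls, 3 between stages after DM and 5 for the interaction. At an unadjusted p under 0.05 in edgeR the numbers were 1, 2, 1, 2 and 8 in the same order. The direction of the named log2 fold changes was kept under all alternatives in which the gene could be fitted, except for Eif2b5 between stages after DM, which ranged from -0.53 (without DM replicate 3 of primary follicles) to 10.86 when each library was left out, and for Eif4g2 after DM in primary follicles, which was -0.011 with library size alone (an alternative chosen after seeing the data). The number of members whose groups did not overlap went from 4 to 7 with DESeq2 size factors in primary follicles, and from 0 to 4 (library size) and 2 (DESeq2 size factors) between stages after DM. The matching shares of all genes were calculated on the TMM scale only, so whether these shifts were particular to the members is not known. The median number of members detected per library was 38 with more than 3 counts, 43 with more than 0 and 35 with at least 10. The cause of these differences was not tested. With the replicate number as a block, 0 members were called in all 5 comparisons. Libraries with the same number did not vary together (correlations of -0.035 to 0.04 over 12 pairs, 0 of them over 0.1). With so wide a spread between libraries, these correlations cannot decide whether the numbers pair the libraries, and the labels do not say.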
